A study of Mus musculus with 7 samples.

Results

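Integrins and laminins are the receptors and the sheet-forming matrix proteins that tie heart cells to their basement membranes, and their genes were described here in left atria overexpressing FOG2. The members were all rows of the count table whose symbol names an integrin alpha chain, an integrin beta chain or a laminin chain. There were 37 of them among 24421 gene rows, 26 integrin and 11 laminin genes, and 34 had enough reads to be tested. RNA sequencing counted transcripts in the left atrium of adult mice of the outbred CD1 strain, with 4 libraries of the genotype FOG2 Overexpression and 3 of the genotype WT. All animals of both groups had been kept without doxycycline for 1 week before the hearts were taken, and the protocol calls them DTG and NTG without saying what these stand for. Zfpm2 encodes FOG2, a cofactor with zinc fingers that acts through GATA factors, and the series title ties it to a TBX5 and GATA4 network of the atrium. The labels name neither the promoter that drives FOG2 nor the cells that carry it, and do not say whether a library came from 1 animal or from a pool.

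An integrin is a pair of 1 alpha and 1 beta chain that spans the membrane, binds matrix outside the cell and links through adaptor proteins to actin inside. A laminin is a cross-shaped trimer of an alpha, a beta and a gamma chain, and trimers assemble into the sheet on which basement membranes are built. In striated muscle, alpha7 paired with beta1 is the main laminin receptor at the sarcolemma, and Lama2 encodes the main laminin alpha chain of the muscle fibre's own basement membrane, whereas Lama4 and Lama5 are the alpha chains of vessel walls.

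The gene rows summed to 5562520 to 8655655 counts in the overexpression libraries and to 7673309 to 8579443 in the wild type libraries. A single count stood for 0.111 to 0.174 CPM, the counts scaled to a common library total after TMM normalisation. Zfpm2 had 140.1, 222, 262 and 246 CPM in overexpression replicates 1 to 4, against 31.7, 30.9 and 29.4 CPM in wild type replicates 1 to 3. Overexpression replicate 1 stood apart from the others of its group, with correlations across genes of 0.947 to 0.949 where the other replicates reached 0.978 to 0.983. Transcripts of 4 Y-linked genes were present in overexpression replicate 1 and wild type replicate 2 and near 0 in the other 5 libraries, a split that the labels do not give. Counts of members are given with and without these libraries, and the text gives the fold change without overexpression replicate 1 for each tested member that this moved by over 1.5 times.

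No integrin or laminin gene passed the test, while their summed reads made up a larger part of every overexpression library. Their counts came to 0.606%, 0.513%, 0.546% and 0.533% of all gene counts in overexpression replicates 1 to 4, against 0.403%, 0.402% and 0.438% in wild type replicates 1 to 3. These are parts of library totals before TMM. With library totals only, the median log2 fold change of all tested genes was also above 0, at 0.15. Itgb1, Lamb2, Lama2 and Lamc1 held the most reads among the members in every library. With edgeR's quasi-likelihood test and Benjamini-Hochberg adjustment over all genes at 0.05, the test called 0 of the 34 members higher and 0 lower, where 1.55% of all 13295 tested genes were called higher and 3.29% lower. At an unadjusted p under 0.05 there were 11 higher and 2 lower, beside 9.14% and 10% of all tested genes. DESeq2 called 3 higher, among them Itga10 and Lamb2, and 1 lower (Itgb6), beside 3.46% and 5.12% of all genes, and limma-voom called 0 in either direction, beside 1.38% and 3.27%.

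The members' fold changes were small and mostly in one direction. The median log2 fold change was 0.29 over the 34 members and 0.02 over all tested genes. Of the members, 27 (79.4%) were above 0 and 7 below, where 53.2% of all tested genes were above 0. In 12 members every overexpression library lay above every wild type library, beside 8.99% of all tested genes. In 1 member, Itgb6, every overexpression library lay below, beside 10.8% of all tested genes. Without overexpression replicate 1 these counts were 14 and 2, beside 12.8% and 14.2% of all genes, and the members' median was 0.22. In the 5 libraries without Y-linked transcripts they were 16 and 2, beside 17.3% and 17.5%, with a median of 0.23. With library totals only, which moved the median of all genes to 0.15, the members' median was 0.42, and 2 members were called higher (Itga10 and Lamb2) and 0 lower, beside 3.34% and 2.21% of all genes. Leaving out overexpression replicate 1 gave 1 member higher (Itga10) and 1 lower (Itga6), beside 3.74% and 4.99%. Leaving out replicate 2 gave Lamb2 (background 1.13% higher) and leaving out replicate 3 gave 1 member (1.05%). No test was made over the members as a set.

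**Figure D1:**
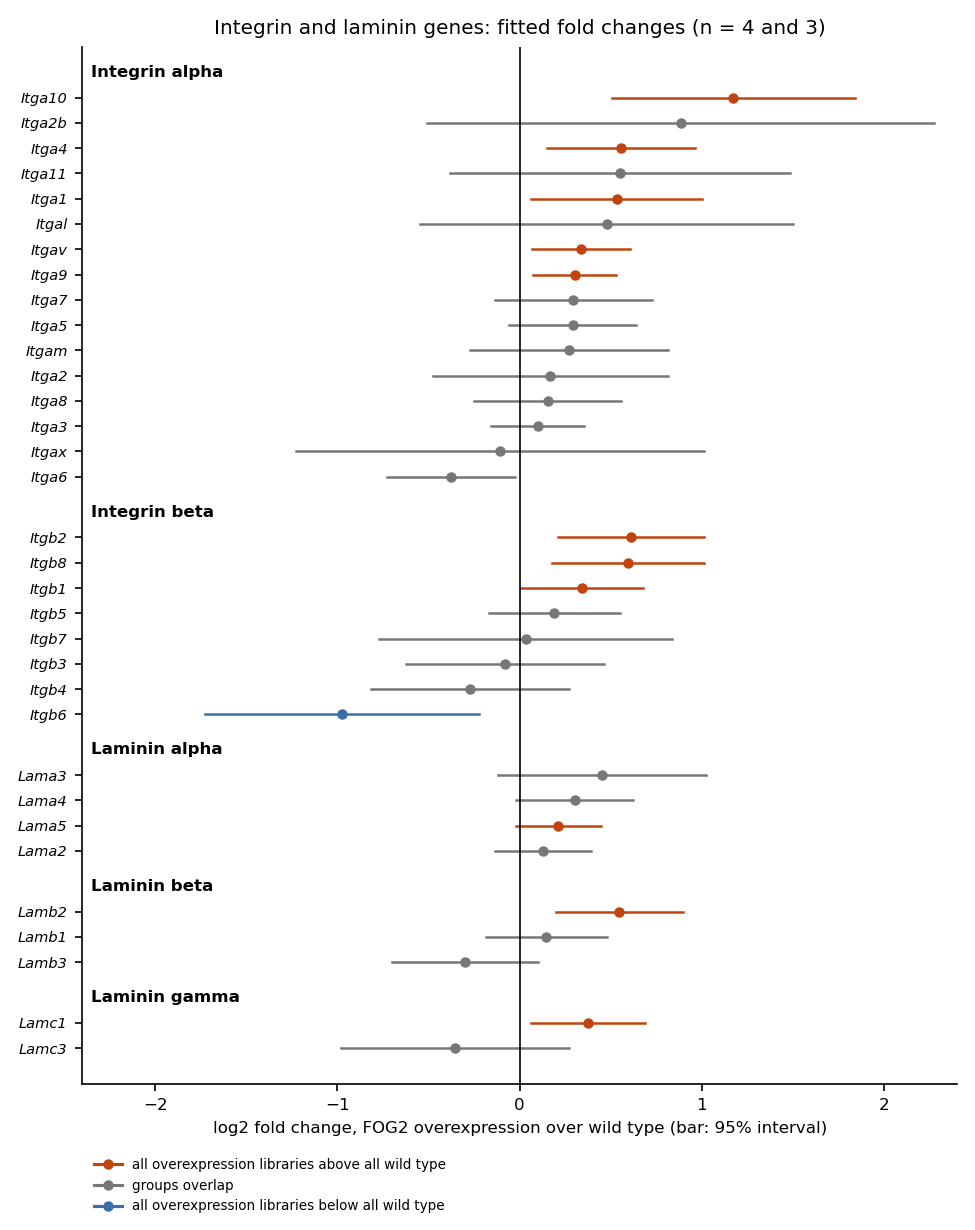
Fitted log2 fold change (x axis, FOG2 overexpression over wild type) of 33 of the 34 tested members, grouped by chain class, with its 95% interval; colour shows whether the 4 overexpression and 3 wild type libraries overlapped. Most points lie right of 0, from Itga10 at 1.17 down to Itgb6 at -0.98, and 11 members are drawn as wholly above wild type and 1 as wholly below.

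Promoter sequence from RefSeq (GRCm38.p6) is shown for Itga10, Lamb2 and Itgb6, because DESeq2 called them and they lay in both directions. The windows begin 250 bases before the RefSeq start and stop before the GENCODE M21 start where that lies further out, which leaves 250 bases for Itga10, 124 for Lamb2 and 210 for Itgb6. Capitals mark the letters GATA, the core of sites for the GATA factors that FOG2 binds, searched on both strands. The windows are chr3:96645334-96645583 on the plus strand for Itga10, chr9:108479612-108479735 on the plus strand for Lamb2 and chr2:60722644-60722853 on the minus strand for Itgb6.
Itga10: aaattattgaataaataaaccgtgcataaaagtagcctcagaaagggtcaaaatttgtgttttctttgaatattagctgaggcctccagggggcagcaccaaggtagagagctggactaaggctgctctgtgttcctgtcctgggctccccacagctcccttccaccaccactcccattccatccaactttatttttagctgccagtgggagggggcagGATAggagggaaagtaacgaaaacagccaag
Lamb2: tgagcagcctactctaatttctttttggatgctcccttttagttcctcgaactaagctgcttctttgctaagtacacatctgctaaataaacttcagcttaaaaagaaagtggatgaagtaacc
Itgb6: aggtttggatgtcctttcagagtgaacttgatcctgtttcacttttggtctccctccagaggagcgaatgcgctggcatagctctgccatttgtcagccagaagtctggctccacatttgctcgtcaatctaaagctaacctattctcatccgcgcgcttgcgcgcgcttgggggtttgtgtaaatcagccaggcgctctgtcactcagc
The core shown in Itga10 begins 31 bases before its start. The full windows of 250 bases before the RefSeq start of Lamb2 and Itgb6 also held 1 core each, 62 and 35 bases before that start, but both lie inside the gene by the GENCODE start and are not shown. Of all 32841 RefSeq windows of 250 bases, 53.6% hold at least 1 core. None of the 3 full windows held a longer GATA site (AGATAA, or the same letters with T in the first place or G in the last, on either strand, all of which contain the core), which 26.5% of all windows hold, or the T-box letters AGGTGT on either strand, which 11.8% hold. Promoters were matched for 23 of the 37 members in 26 windows, of which 11 held the core, 2 the longer site and 3 the T-box letters. These matches describe letters only.

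Laminin-binding integrins pair with beta1 and showed both directions. Itga7, the muscle laminin receptor chain, had 176, 128, 199.7 and 198 CPM in overexpression replicates 1 to 4, against 114, 138 and 177 CPM in wild type. The groups overlapped, and the log2 fold change was 0.30 ± 0.19 (SE, adjusted p = 0.435), with a 95% interval of -0.13 to 0.72 from that error and the fit's degrees of freedom. Itga6, a laminin receptor chain of endothelial and epithelial cells, had 133, 83.3, 120.2 and 95.4 CPM in overexpression against 146, 131 and 144 CPM in wild type. Replicate 1 of the overexpression group reached into the wild type range and the other 3 lay below it. The log2 fold change of Itga6 was -0.38 ± 0.16 (adjusted p = 0.231). Without overexpression replicate 1 Itga6 was at -0.49 with an adjusted p of 0.0391, the only fit of 18 alternatives in which it was called. Over those alternatives the adjusted p ran from 0.0391 to 0.468. Itga3 differed by 0.10 ± 0.11 (42.3 ± 3.60 CPM in overexpression and 39.5 ± 4.07 in wild type, SD, n = 4 and 3), and by 0.16 ± 0.11 without overexpression replicate 1.

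Of the 4 collagen-binding alpha chains all had a fold change above 0, beside 53.2% of all tested genes, though that of Itga2 turned in 2 fits, and in 2 chains the groups did not overlap, beside 8.99% of all tested genes. Itga10, a collagen receptor chain known from cartilage, had 3.44, 5.199, 5.22 and 3.14 CPM in overexpression against 2.03, 1.69 and 1.85 CPM in wild type. These came from 27 to 36 counts per overexpression library and 12 to 17 per wild type library. Its log2 fold change of 1.17 ± 0.30, a fold of 2.26 with a 95% interval of 1.42 to 3.59, had an adjusted p of 0.0584, the smallest among the members. It was called with library totals only (adjusted p = 0.0434), by DESeq2 (0.0392) and without overexpression replicate 1 (0.0290), and its adjusted p reached 0.220 over the alternatives. In GENCODE M21, 33.5% of the exon bases of Itga10 are shared with a same-strand gene, Gm42957. How reads over these bases were counted is not known. Itga1, a collagen receptor chain of smooth muscle and other mesenchymal cells, had 124, 69.8, 87.2 and 69.0 CPM against 61.1, 54.0 and 66.5 CPM in wild type (0.53 ± 0.21, adjusted p = 0.207). Replicate 1 stood highest, and replicates 2 and 4 were just above wild type. Without replicate 1 the fold change of Itga1 was 0.31 ± 0.12. Itga11, a fibroblast collagen receptor chain, had 7.11, 22.2, 16.2 and 17.1 CPM against 10.6, 6.07 and 15.03 CPM in wild type (0.55 ± 0.41). Its lowest overexpression library was replicate 1, and the other 3 lay above wild type. Itga2 differed by 0.17 ± 0.29, and by 0.085 ± 0.30 without overexpression replicate 1, and its sign turned without wild type replicate 2 and in the 5 libraries without Y-linked transcripts.

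Receptors of fibronectin, vitronectin and other ligands with an RGD sequence were led by Itgav. That chain, the alpha partner of several beta chains and an activator of latent TGF-beta, had 260.3, 202, 204 and 241 CPM in overexpression against 170.3, 173 and 195 CPM in wild type. The groups did not overlap, but replicates 2 and 3 of the overexpression group were only slightly above the highest wild type library (0.34 ± 0.12, adjusted p = 0.162). Itga5, the main fibronectin receptor chain, had 75.6, 66.1, 54.8 and 67.0 CPM against 54.0, 64.7 and 43.4 CPM (0.29 ± 0.15, adjusted p = 0.352), with overlap. Itga8, which binds nephronectin, had 22.0, 26.6, 28.7 and 25.1 CPM in overexpression against 27.5, 16.5 and 24.6 CPM in wild type (0.15 ± 0.18, adjusted p = 0.684), with a sign that turned without wild type replicate 2. Itga2b, the platelet fibrinogen receptor chain, varied widely, at 5.11, 10.3, 5.05 and 19.5 CPM against 9.42, 4.52 and 2.34 CPM. Its 95% interval ran from -0.51 to 2.28.

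The related chains Itga4 and Itga9, both receptors for VCAM1 and matrix ligands, lay above wild type in every overexpression library. Itga9 had 151, 136, 124 and 135 CPM against 114, 117 and 101 CPM in wild type (0.30 ± 0.10, adjusted p = 0.141). Itga4 had 11.4, 14.6, 12.5 and 10.7 CPM against 10.02, 7.63 and 7.39 CPM (0.56 ± 0.18, adjusted p = 0.131). For Itga4 the lowest overexpression library was only slightly above the highest wild type library.

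Among beta chains, Itgb1, the partner of most alpha chains here, had 1247, 886, 865 and 1037 CPM in overexpression against 795, 747 and 847 CPM in wild type. Every overexpression library was above wild type, replicate 3 only slightly. The log2 fold change was 0.34 ± 0.15 (adjusted p = 0.251), a fold of 1.27, and over the alternatives it ran from 0.18 to 0.46, with 0.22 ± 0.12 without replicate 1. Itgb5, a vitronectin receptor chain, had 125, 155, 160.2 and 193 CPM against 124, 127 and 165 CPM (0.19 ± 0.16, adjusted p = 0.557), and 0.29 ± 0.13 without replicate 1. Itgb8, which pairs with alphaV to activate TGF-beta, had 18.4, 18.1, 14.8 and 13.8 CPM in overexpression against 10.3, 8.76 and 13.3 CPM in wild type (0.59 ± 0.18, adjusted p = 0.111). Itgb3, a partner of alphaV and of the platelet chain, had 14.4, 22.1, 14.96 and 22.8 CPM against 20.03, 25.1 and 13.9 CPM in wild type. Its log2 fold change of -0.08 ± 0.24 changed sign with library totals only, without overexpression replicate 1 (0.035 ± 0.23) or 3 or wild type replicate 2, and in the 5 libraries without Y-linked transcripts.

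**Figure D2:**
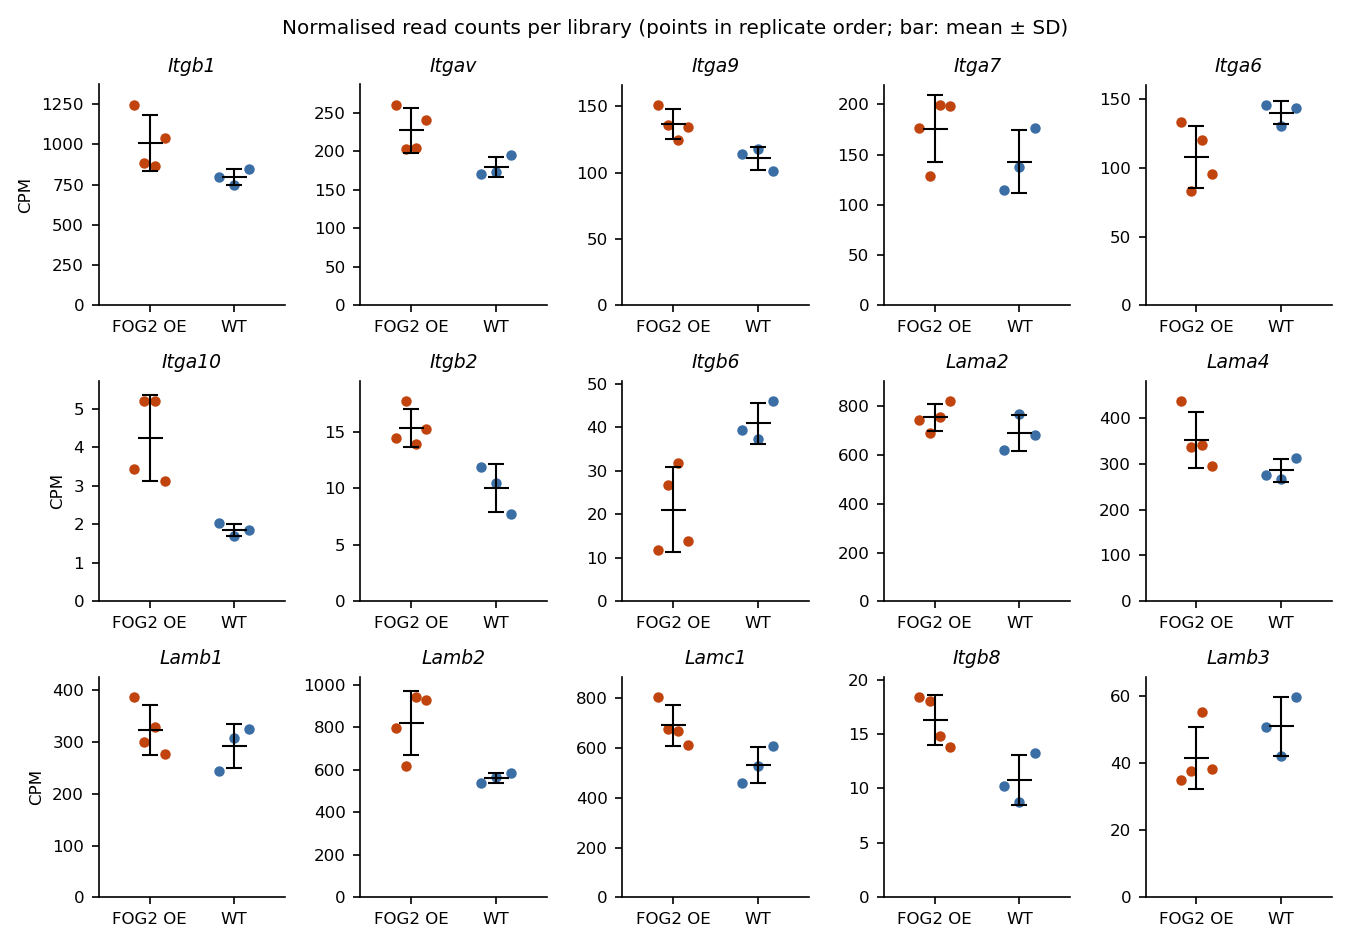
Normalised read count (CPM, y axis from 0) of 15 members in each library, FOG2 overexpression left of wild type, with the mean and SD as bars. Lamb2, Lamc1, Itgb1 and Itgav lie above wild type in every overexpression library, Itgb6 lies below, and Lama2, Itga7 and Lamb1 overlap.

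Itgb6 was the member with the largest negative difference. It encodes a beta chain known from epithelia, where with alphaV it activates latent TGF-beta, and it had 11.8, 26.9, 31.8 and 14.0 CPM in overexpression against 39.4, 37.3 and 46.2 CPM in wild type. All 4 overexpression libraries were below wild type, and replicates 1 and 4 were about as low as each other and far below replicates 2 and 3. The log2 fold change was -0.98 ± 0.33 (adjusted p = 0.151), a fold of 0.508 with a 95% interval of 0.302 to 0.856. DESeq2 called it (adjusted p = 0.0404), and its adjusted p reached 0.325 over the alternatives. Its direction was negative in all 18 alternatives, from -1.24 to -0.78. Itgb4, the other epithelial beta chain and partner of alpha6, had 19.5, 13.9, 16.7 and 13.1 CPM in overexpression against 15.03, 27.3 and 15.3 CPM in wild type. Its log2 fold change of -0.27 ± 0.24 was 0.06 without wild type replicate 2, the library that held the most.

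Leukocyte integrins were low. Itgb2, the beta chain shared by the leukocyte integrins, had 14.4, 17.8, 13.9 and 15.2 CPM in overexpression against 11.9, 10.5 and 7.76 CPM in wild type, with no overlap (0.61 ± 0.18, adjusted p = 0.0919). Its alpha partners did not share this separation. Itgam, of which 68.7% of exon bases are shared with a same-strand gene in GENCODE M21, differed by 0.27 ± 0.24 (0.17 ± 0.24 without replicate 1), Itgal by 0.48 ± 0.45 and Itgax by -0.11 ± 0.50, the last with a sign that turned with library totals only and in 5 other fits, and that was -0.0079 ± 0.53 without replicate 1. Itgb7 differed by 0.03 ± 0.36, and by -0.070 ± 0.40 without replicate 1, at 1.05 to 1.67 CPM in overexpression and 1.11 to 1.91 CPM in wild type. Itgad had 0, 0, 0 and 4 counts in overexpression and 0, 6 and 4 in wild type, and Itgae had 0, 3, 7 and 3 against 6, 6 and 5. Neither was tested. Beside these genes, 0 of 12 tested leukocyte markers were called, and their summed level was 548 to 772 CPM in overexpression and 428 to 625 CPM in wild type. All 12 had a fold change above 0, beside 53.2% of all tested genes, with a median log2 fold change of 0.30. In bulk tissue a change in the number of such cells and in RNA per cell cannot be told apart.

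Of the 4 laminin alpha chains tested, 3 overlapped between the groups, beside 10668 of all 13295 tested genes. Lama2 had 742, 690.4, 756 and 821 CPM in overexpression against 620.3, 767 and 679 CPM in wild type. Its groups overlapped, and the log2 fold change of 0.13 ± 0.12 (adjusted p = 0.599) had a 95% interval of -0.14 to 0.39, so fold changes above 1.31 lay outside it. Lama4 had 437, 335, 339.6 and 294 CPM against 275, 267 and 313 CPM (0.30 ± 0.14, adjusted p = 0.291), with overlap in replicate 4 only, and 0.18 ± 0.10 without replicate 1. Lama5 had 97.7, 90.4, 106 and 82.4 CPM against 82.0, 80.8 and 80.5 CPM. The 3 wild type values of Lama5 were almost equal, and replicate 4 of the overexpression group lay right above them (0.21 ± 0.10, adjusted p = 0.304). Lama3, the alpha chain of epithelial laminin, had 14.4, 23.7, 25.9 and 14.4 CPM in overexpression against 14.7, 11.2 and 16.8 CPM in wild type (0.45 ± 0.25). Lama1, the alpha chain of early embryonic basement membranes, had 2, 0, 0 and 2 counts in overexpression and 0 in each wild type library, and was not tested.

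Among laminin beta and gamma chains, Lamb2 and Lamc1 lay above wild type in every overexpression library. Lamb2, the beta chain of synaptic, vascular and mature muscle basement membranes, had 796, 618, 944 and 926 CPM in overexpression against 538, 564 and 583 CPM in wild type. Replicate 2 was nearest to wild type and replicates 3 and 4 were farthest. The log2 fold change was 0.55 ± 0.16, a fold of 1.46 with a 95% interval of 1.15 to 1.86 (adjusted p = 0.0850). Lamb2 was called with library totals only (adjusted p = 0.0261), by DESeq2 (0.0104) and without overexpression replicate 2 (0.0227), and its adjusted p reached 0.270 over the alternatives. Lamb1, the beta chain of developing and many adult tissues, had 388, 299.7, 329 and 278 CPM against 244, 307 and 326 CPM (0.15 ± 0.15, adjusted p = 0.628), and 0.048 ± 0.12 without replicate 1. Lamb3, the epithelial beta chain, had 35.0, 37.7, 55.1 and 38.4 CPM against 50.8, 42.2 and 59.9 CPM (-0.30 ± 0.18, adjusted p = 0.398). Overexpression replicate 3 was the one library that reached the wild type range.

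Lamc1, the gamma chain of nearly all laminins outside epithelia, had 807, 677, 667 and 612 CPM in overexpression against 460.1, 528 and 607 CPM in wild type. Overexpression replicate 4 and wild type replicate 3 were nearly equal, and overexpression replicate 1 was highest (0.38 ± 0.14, adjusted p = 0.180). Lamc3 had 14.6, 10.7, 20.7 and 11.98 CPM in overexpression against 13.0, 25.1 and 17.2 CPM in wild type (-0.35 ± 0.28).

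**Figure D3:**
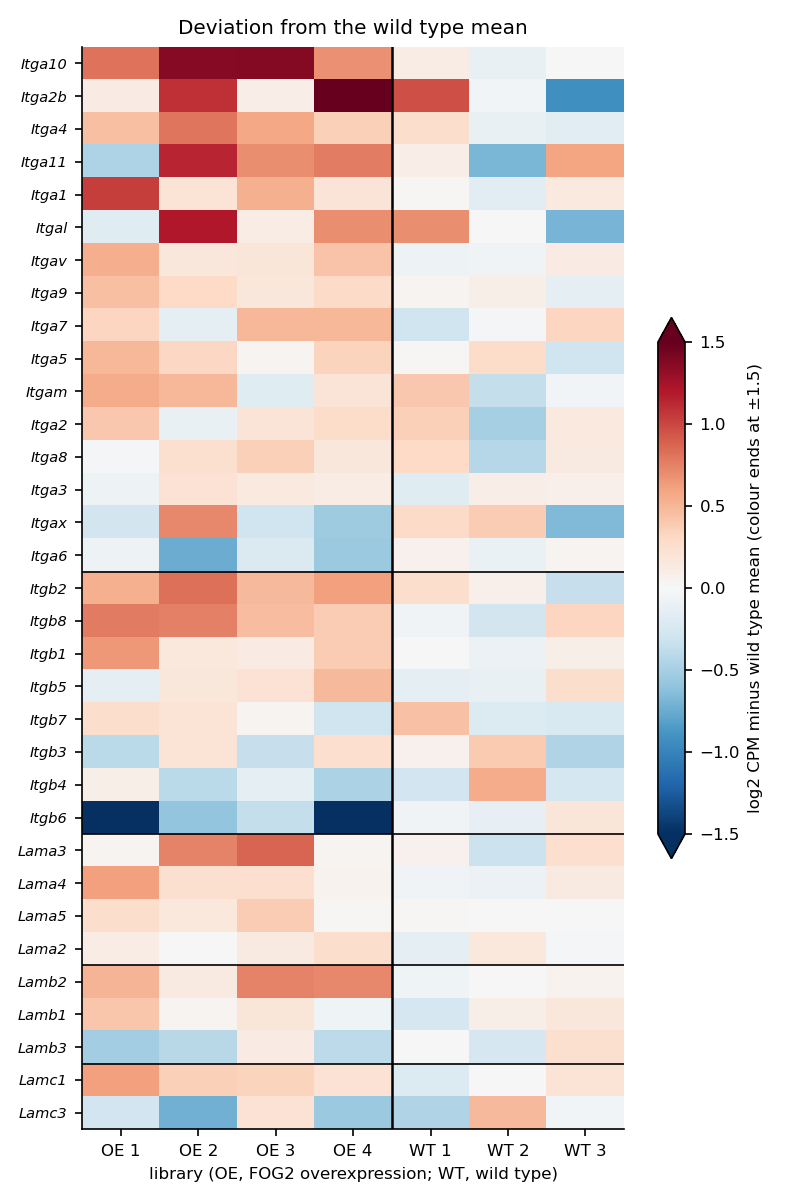
Log2 CPM of 33 of the 34 tested members minus the wild type mean (colour), by library, with the 4 overexpression libraries left of the 3 wild type libraries. Overexpression replicate 1 holds the highest value of 12 of the 34 members, and the Itgb6 row is darkest in overexpression replicates 1 and 4.

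Replicates of the overexpression group differed in which members were high. Overexpression replicate 1 held the highest of the 7 values for 12 of 34 members, among them Itgb1, Itgav, Itga1, Lama4, Lamb1 and Lamc1, against 6, 6 and 3 members in replicates 2, 3 and 4. Wild type replicates 1 to 3 held the lowest value of 8, 10 and 10 members. The members' median deviation from the wild type mean was 0.29, 0.21, 0.19 and 0.25 in overexpression replicates 1 to 4 on the log2 scale, against 0.02, -0.05 and 0.05 in wild type replicates 1 to 3. For all tested genes the same medians were 0.013, 0.012, 0.011 and 0.0025 in overexpression replicates 1 to 4. Activated fibroblast markers summed to 2664 CPM in overexpression replicate 1 and to 1282 to 1447 CPM in replicates 2 to 4, against 793 to 927 CPM in wild type. Without Acta2, the smooth muscle actin gene, they summed to 1629 CPM in replicate 1 and to 690.01, 686 and 567 CPM in replicates 2 to 4. Wild type sums were 757 to 912 CPM, above those of replicates 2 to 4. Fn1 held the largest part of these sums. It had 799, 478, 496 and 417 CPM in overexpression replicates 1 to 4, against 691, 671 and 578 CPM in wild type. Of the 10 tested markers other than Acta2, 8 had a fold change above 0, beside 53.2% of all tested genes. Their median log2 fold change was 0.97. Acta2 itself had 681 to 1035 CPM in overexpression and 15.3 to 36.2 CPM in wild type. The part of these markers in the members' levels was not tested.

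Counts per kb of exon allow levels to be ordered between genes. In overexpression libraries Itgb1 had the highest level at 247 ± 43.2 CPM per kb, followed by Lamb2 at 135 ± 24.8, Lamc1 at 83.5 ± 9.96, Lama2 at 46.0 ± 3.30 and Itgb5 at 44.6 ± 7.77 (SD, n = 4). Wild type libraries gave 195 ± 12.2, 92.4 ± 3.72, 64.3 ± 8.92, 42.2 ± 4.53 and 39.1 ± 6.35 CPM per kb for the same genes (SD, n = 3). The neighbours Lama2 and Itgb5 were within each other's spread in both groups. With the longest transcript as length the order changed below Lamb2: in overexpression Lamc1 had 90.6 ± 10.8, Lama2 78.3 ± 5.61, Lama4 58.2 ± 10.01, Lamb1 56.0 ± 8.25 and Itgb5 48.3 ± 8.41 CPM per kb, and in wild type Lama2 (71.7 ± 7.69) was level with Lamc1 (69.8 ± 9.68), above Lamb1 (50.5 ± 7.41), Lama4 (47.1 ± 4.06) and Itgb5 (42.3 ± 6.87). Per kb of exon, Itgb1 held 86.1%, 78.0%, 77.7% and 78.8% of the integrin beta level in overexpression replicates 1 to 4, against 79.1%, 77.3% and 77.1% in wild type. The summed level of the 3 laminin beta chains was 174 ± 25.8 CPM per kb of exon in overexpression and 129.5 ± 8.53 in wild type. That of the 5 laminin alpha chains was 85.3 ± 4.83 in overexpression and 74.2 ± 4.28 in wild type.

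Of the 37 chains, 5 had shares of their class that did not overlap between the groups, with either length. In CPM, 8.99% of all tested genes lay wholly above wild type and 10.8% wholly below. Lamb2 and Itga10 held larger shares in overexpression, and Lamb3, Itga6 and Itgb6 smaller ones. Shares within a class are tied, so a rise in a chain lowers the shares of the others. The shares given here are per kb of exon. Lamb2 made up 74.7%, 73.9%, 78.9% and 81.8% of the laminin beta level in overexpression replicates 1 to 4, against 73.3%, 71.3% and 69.6% in wild type replicates 1 to 3. Lamb3 made up 3.02%, 4.15%, 4.24% and 3.12% in overexpression against 6.36%, 4.91% and 6.57% in wild type, although its CPM overlapped. Itga6 made up 12.3%, 8.95%, 12.2% and 9.18% of the integrin alpha level in overexpression against 17.2%, 15.4% and 16.1% in wild type, and these values did not overlap although its CPM did. Itgb6 made up 0.467%, 1.36%, 1.64% and 0.608% of the integrin beta level in overexpression, against 2.25%, 2.21% and 2.41% in wild type. The laminin alpha makeup overlapped, with Lama2 at 54.1% ± 4.55 in overexpression and 56.7% ± 3.54 in wild type and Lama4 at 34.0% ± 4.29 in overexpression and 31.9% ± 2.84 in wild type. Lamc1 was 95.6% ± 0.487 of the laminin gamma level in overexpression and 94.4% ± 1.38 in wild type. Itga10 made up 0.555%, 0.971%, 0.919% and 0.526% of the integrin alpha level in overexpression, against 0.415%, 0.347% and 0.359% in wild type. These shares are descriptions, with no test.

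**Figure D4:**
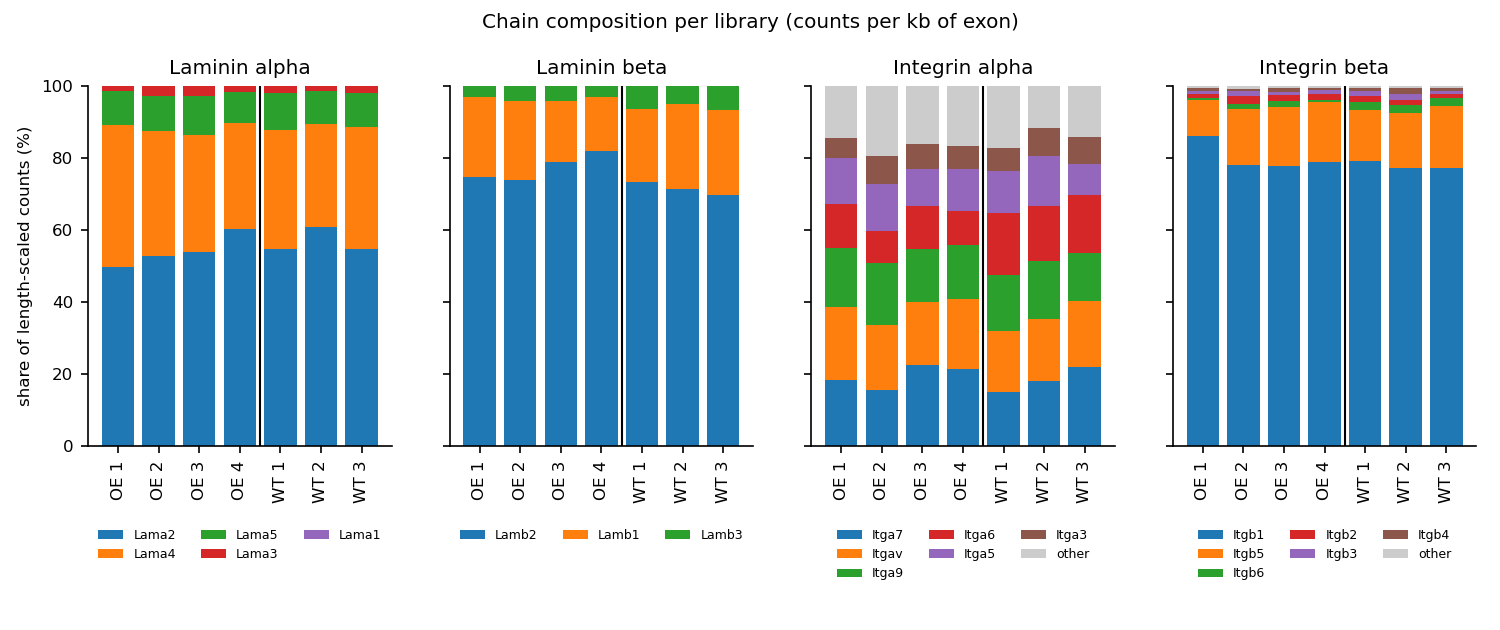
Share of length-scaled counts (y axis, percent) that each chain held within its class in every library, overexpression left of the line and wild type right of it. Lamb2 takes 73.9% to 81.8% of the laminin beta level in overexpression and 69.6% to 73.3% in wild type, and the Itga6 band is narrower in overexpression.

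Genes that work with the members were read in lists of adaptors, basement membrane partners and other ligands. Of 28 tested adaptors that link integrins to actin, 1 was higher and 0 lower, with a median log2 fold change of 0.16 and 10 whose overexpression libraries all lay above wild type, beside 1.55%, 3.29% and 8.99% of all tested genes called higher, called lower and wholly above. The number called higher was 4 by DESeq2 and with library totals only, beside 3.46% and 3.34% of all genes. It was 3 with no filter, without overexpression replicate 1 and in the 5 libraries without Y-linked transcripts, beside 1.16%, 3.74% and 2.19%. With the Y-linked covariate it was 2, beside 1.79%. It was 0 with the replicate block and without overexpression replicate 2 or 3 or any one wild type library, beside 0.556% to 1.13%. The called gene was Zyx, encoding the focal adhesion protein zyxin, with 91.5, 136, 104 and 119.6 CPM in overexpression against 75.4, 79.1 and 62.2 CPM in wild type (0.64 ± 0.15, adjusted p = 0.0432). Zyx was called in 10 of 18 alternatives and was not called without overexpression replicates 2, 3 or 4, without any one wild type library, with the replicate block (adjusted p = 0.0762) or when the level of Y-linked transcripts was a covariate. Its adjusted p ran from 0.00341 to 0.140. The actin cross-linkers Flna (0.83 ± 0.20, adjusted p = 0.0527) and Actn1 (0.71 ± 0.18, adjusted p = 0.0620) and the kinase gene Src (0.45 ± 0.16) came next by p.

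Of 16 tested partners of laminin in basement membranes, 0 were higher and 1 lower, beside 1.55% and 3.29% of all tested genes. Their median was 0.29, and 1 was higher by DESeq2, without wild type replicate 3 and with library totals only, beside 3.46%, 0.987% and 3.34% of all genes. Ntn1, encoding the laminin-related guidance protein netrin, had 89.2, 103.3, 100.9 and 92.6 CPM in overexpression against 129, 134 and 118 CPM in wild type (-0.40 ± 0.09, adjusted p = 0.0464). It was called in 6 of 18 alternatives, with an adjusted p of 0.00414 to 0.210, and of the fits that left out 1 library only the one without overexpression replicate 1 called it. Hspg2, encoding perlecan, had 0.47 ± 0.14 (adjusted p = 0.0894), and the basement membrane collagens Col15a1 and Col4a6 had 0.43 ± 0.17 and 0.36 ± 0.14. Of 19 tested ligands other than laminins and collagens, 0 were called in either direction, and their median was 0.25. At an unadjusted p under 0.05 there were 4, all higher, beside 9.14% of all tested genes higher and 10% lower. Without overexpression replicate 1 the ligands called were 2 higher and 2 lower, beside 3.74% and 4.99% of all genes. Higher ligands numbered 1 by DESeq2, with library totals only and in the 5 libraries without Y-linked transcripts, beside 3.46%, 3.34% and 2.19%. Vcam1, the ligand of alpha4, had 0.51 ± 0.14 (adjusted p = 0.0670), Tgfb2 0.40 ± 0.13, Ltbp1, which holds latent TGF-beta in the matrix, 0.42 ± 0.15, and Thbs1, encoding thrombospondin, 2.69 ± 1.03. Thbs1 had 235 CPM in overexpression replicate 1 and 14.3 to 33.3 CPM in replicates 2 to 4, against 9.11 to 15.7 CPM in wild type, and without replicate 1 its fold change was 1.103 ± 0.33 (adjusted p = 0.100).

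Summed markers of cell types separated the groups in some lists and overlapped in others. Of all tested genes, 1.55% were called higher and 3.29% lower, and over the alternatives 0.556% to 3.74% and 1.34% to 5.12%. A fold change above 0 was found in 53.2% of all tested genes. Cardiomyocyte markers were lower in 4 of 12 cases and higher in 0, and the count of 4 was 3 to 6 over the alternatives. All 12 had a fold change below 0, with a median log2 fold change of -0.40. Their sums were 91505 to 125431 CPM in overexpression and 141169 to 165277 CPM in wild type. The largest parts of these sums were Ttn and Myh6, which were not called (adjusted p = 0.291 and 0.282). Smooth muscle and pericyte markers were higher in 3 of 12 cases (Acta2, Cspg4 and Notch3) and lower in 0, with sums of 1995 to 2574 CPM in overexpression and 1165 to 1436 CPM in wild type. Without Acta2 those sums were 1314 to 1694 CPM in overexpression and 1150 to 1415 CPM in wild type, which overlap. Of the 11 markers other than Acta2, 10 had a fold change above 0, beside 53.2% of all tested genes. Their median log2 fold change was 0.60. The count of 3 was 5 without overexpression replicate 1 and by DESeq2, and 2 by limma-voom and without overexpression replicate 2 or 4 or any one wild type library. Of 11 tested activated fibroblast markers 1 was higher, Acta2, which both lists hold. Fibroblast markers had 0 of 12 called and sums of 16654 to 20240.1 CPM in overexpression and 12085 to 17026 CPM in wild type. Of these 12, 11 had a fold change above 0 and 1 below, with a median log2 fold change of 0.38. Vascular endothelial markers had 0 of 12 called, at 2079.6 to 2561 and 2360.3 to 2668 CPM. Of these 12, 3 were above 0 and 9 below, with a median of -0.06. Mesothelial and endocardial markers had 0 of 10 called, at 1574 to 2013 and 1832 to 1863 CPM. Platelet markers, of which 3 of 8 were tested, summed to 24.4 to 52.3 and 20.9 to 33.6 CPM, and Schwann cell and neuron markers, of which 3 of 10 were tested and Th was at 0 in every library, to 40.0 to 61.8 and 28.7 to 33.9 CPM, with 0 called in both. A Schwann cell or neuron marker was called higher in 6 of 18 alternatives, among them DESeq2, library totals only and the fit without overexpression replicate 1, and a platelet marker in 2, by DESeq2 and without overexpression replicate 3. Over the alternatives, fibroblast markers had 2 called higher by DESeq2, activated fibroblast markers 3 higher with the Y-linked covariate, 2 higher by DESeq2 and 1 lower without overexpression replicate 1, endothelial markers 1 lower by DESeq2 and without overexpression replicate 1, and mesothelial and endocardial markers 1 lower without overexpression replicate 1 and in the 5 libraries without Y-linked transcripts. The part of any of these cell types in the integrin and laminin levels was not tested.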

How the data were processed

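The members, gene lists and tests were chosen with earlier results of these data known. The authors deposited unnormalised counts of reads for each gene in 7 libraries, beside summary lines of the counter. The submitters' processing notes name STAR, HTSeq 0.6.0, DESeq2 and the build mm10, with no roles. The strand setting is not given, so where genes overlap, on either strand, their reads may be mixed or left out as ambiguous. Per the labels' protocols RNA came from TRIzol and columns, and the labels name both polyA RNA and Ribozero.

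Summary lines (23.4% to 30.5% without a feature, 37.1% to 43.4% not unique, 0.101% to 0.254% ambiguous) and 1 log line were removed first. Genes kept by filterByExpr (minimum count 10, total 15) were tested with edgeR 4.0.16 in R 4.3.3, using TMM and the robust quasi-likelihood F test, two-sided, with no covariate. The SE was derived from the fold change and its F value. Log2 deviations used a prior count of 2. Exon lengths and shared exon bases came from GENCODE M21 (mm10). The fit was also run on counts simulated with known fold changes at the fitted dispersions. These held no library set apart as overexpression replicate 1 was, so that run checks the code only. By a written rule, values in every library were due for called members, the 12 highest by mean CPM and 18 given by name; those of other members were added after their values were seen. Results of 1 member are not reported here.

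Alternatives were RLE, library totals only, upper quartile scaling, 2 other filters, DESeq2 1.42.0, limma-voom (limma 3.58.1), no robust dispersions, a replicate block, a covariate of Y-linked transcripts and each library left out. The fit of the 5 libraries without Y-linked transcripts was added after seeing the data. No label says that libraries are separate animals, so p-values reflect the spread among libraries, which may be technical in part. Y-linked transcripts were present in overexpression replicate 1 and wild type replicate 2 only, so neither group was a set of repeats of 1 sample. Whether the other libraries came from separate animals is not known. The limit that a count of 0 allows, 3 counts, was 0.333 to 0.522 CPM and covers counting error only.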

Additional observations from a re-analysis of the deposited data

Results flagged for a closer look

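In 2 of 34 members, 1 overexpression library lay apart from the other 3 by Dixon's test at its 95% critical value, which chance alone passes in about 1 in 20 groups. Itgax, an alpha chain of myeloid cells, had 2.02 CPM in overexpression replicate 2 and 0.698 to 0.889 CPM in replicates 1, 3 and 4, a gap of 0.856 of the range. These values rest on 14 counts in replicate 2 and 5 to 8 counts in the others. Lamb3 had 55.1 CPM in overexpression replicate 3 and 35.0 to 38.4 CPM in replicates 1, 2 and 4, a gap of 0.831 of the range.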

How the results depend on the processing

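The members called numbered 3 higher and 1 lower by DESeq2, 2 and 0 with library totals only, and 0 to 1 higher and 0 to 1 lower with each library left out. The other 9 settings gave 0 and 0. The members' median was 0.42 with library totals only, 0.23 in the 5 libraries without Y-linked transcripts and 0.22 to 0.31 with each library left out. Calls over all genes were 460 higher and 681 lower by DESeq2, 444 and 294 with library totals only, 129 and 253 with the replicate block, and 75 to 493 higher and 181 to 658 lower with each library left out, against 206 and 438 as reported. No label pairs the replicate numbers, so they were not taken as pairs. Deviations of same-numbered libraries correlated at 0.0789, 0.0136 and 0.0720, and those of differently numbered libraries at -0.101 to 0.152. These values cannot settle whether libraries were paired. The replicate block called no member.

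Of 611 fits of single members, 581 kept direction and side of the threshold, 10 gained a call and 20 turned the sign, in 6 members that were never called. With library totals only Itgax was at 0.019 and Itgb3 at 0.045, and with the replicate block Itgax was at 0.026. In the 5 libraries without Y-linked transcripts Itga2 was at -0.13, Itgax at 0.20, Itgb3 at 0.24 and Itgb7 at -0.19. With each library left out, Itgb3 ran from -0.28 to 0.13, Itgb7 from -0.11 to 0.34, Itgax from -0.42 to 0.11, Itga2 from -0.052 to 0.36, Itga8 from -0.032 to 0.31 and Itgb4 from -0.42 to 0.062. With the longest transcript as length, the share of Itgb6 differed by -1.74 points and that of Itga6 by -7.25 points. The cause of these shifts was not tested. Depth limits the low members: the 95% intervals of Itgal, Itgax and Itgb7 were wide.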
